A study of Mus musculus with 165 samples.

Results

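PUER cells are an IL3-dependent mouse myeloid progenitor line of genotype Spi1-/-, given as bone marrow-derived in the labels. Their only PU.1 is a fusion protein that carries the hormone-binding part of the estrogen receptor, and 4-hydroxy-tamoxifen (OHT) activates it. Cells held in IL3 were induced with 200 nM OHT at 0h (IL3-OHT), which drives them toward macrophages, and cells moved from IL3 to GCSF 48 h earlier were induced with 100 nM OHT (GCSF-OHT), which drives them toward neutrophils. The comparison here is between the 3 IL3-OHT libraries at 136h and the 3 at 120h, chosen by their titles, 6 libraries that make up 2 of the 56 groups of the series. Both groups share the genotype, the IL3, the 200 nM OHT and detachment with trypsin. They differ by 16 h in culture, by plate and by the prefix of their library names, given below. Every time point was seeded in its own plate, so time and plate cannot be told apart. Part of the medium was exchanged and OHT was added again at 40h, 88h and 136h, and whether the 136h cells were taken before or after the exchange of that hour is not stated in the sources used here. One line was used throughout, so p-values measure the spread between culture wells of 1 line, which may be technical.

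Myeloid progenitors leave the cell cycle as they mature into macrophages, and PU.1 raises the myeloid regulators *Egr1* and *Egr2* while the neutrophil regulators *Gfi1* and *Cebpe* are held down. Other programs known in most cells are that of ATF4, which answers shortage of amino acids, and that of SREBP2, which makes and imports cholesterol. The comparison of 136h with 120h asks which genes moved within IL3-OHT cells late in the time course.

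Of 17414 genes tested, 497 were higher (2.85% of all tested) and 995 were lower (5.71%) at 136h than at 120h. The thresholds, which are those of the study, were 0.05 for the adjusted p and 0.58 for the size of the log2 fold change. All log2 fold changes below are on the log2(normalized count + 1) scale, given with their standard error (SE), and the test was limma across all groups with Benjamini-Hochberg adjustment. A gene that passed both thresholds is said to have risen or fallen. Genes that fell included 30 of 39 mitosis genes, 18 of 37 DNA replication genes and 5 of 25 Fc and paired receptors. Genes that rose included the stress cytokine *Gdf15*, 7 of 25 cholesterol genes, 6 of 25 ATF4 targets and 11 of 79 ribosomal protein genes. From 112h to 136h, 35 of 39 mitosis genes, 17 of 37 DNA replication genes and 5 of 25 Fc and paired receptors were lower. Over that time 2 cholesterol genes were higher and 2 lower, and 2 ATF4 targets were higher and 5 lower. Only 1 ribosomal protein gene was higher.

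The 6 libraries held between 18954653 and 23328109 reads on genes, and replicates of 1 time correlated at 0.984 or more on the log2 scale. Both 120h groups, IL3-OHT and GCSF-OHT, carry library names with the prefix m17_114, and the other libraries in the test carry m17_121. What the prefix means is not stated, so the 120h start and the prefix cannot be told apart, and the main results are also given from a 112h start, with the prefix m17_121 on both sides. Of the macrophage markers, *Itgam*, *Ly6c2*, *Ccr2*, *Cd68* and *Slpi* were expressed at both times while *Csf1r*, the M-CSF receptor, had a mean of 9.15 normalized counts at 120h and 6.89 at 136h. The neutrophil granule genes *Lcn2* (45538 and 47214) and *Ngp* (35634 and 43287) were the highest of the 7 neutrophil markers. The others were lower, from *Camp* (1705 and 1780) down to *Ly6g* (36.4 and 48.2). The cultures thus held RNA of markers of both lineages. Bulk RNA cannot tell cells that carry both from a mixture of cells. The summed level of 9 macrophage markers was 71422 to 73980 at 120h and 81114 to 86038 at 136h, and that of 7 neutrophil markers was 81626 to 85822 and 91041 to 95626. Most of the first rise was *Slpi* (means of 41123 and 50553), while *Itgam*, *Adgre1*, *Ccr2*, *Csf1r* and *F13a1* had values below 0, and most of the second was *Ngp*, while *Mmp8* and *Cxcr2* had values below 0. Of other cell types, 5 mast cell and basophil markers summed to 52.7 to 66.2 at 120h and 21.1 to 51.1 at 136h, nearly all of it *Mcpt8*, and 4 erythroid markers to 43.2 to 45.98 and 25.7 to 34.5, nearly all of it *Klf1* (−0.61; adjusted p = 0.0909). The 4 eosinophil markers summed to 9.08 or less in every library. The defining genes *Fcer1a*, *Il5ra*, *Hba-a1*, *Hbb-bs* and *Cd3e* were at 0 reads in all 6 libraries. The part of these shifts in the results below was not tested.

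**Figure D1:**
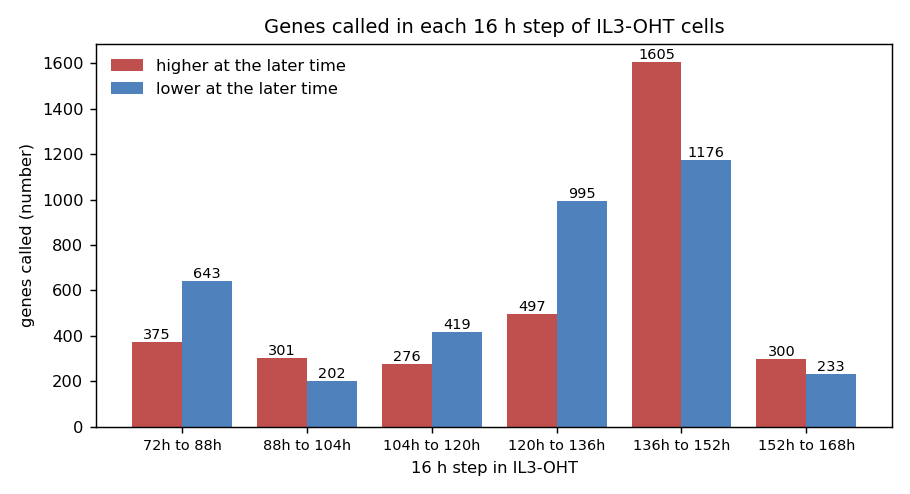
Number of genes called higher (red) or lower (blue) at the later time in each 16 h step of IL3-OHT cells, by the same test and thresholds; the bars start at 0. The step from 120h to 136h had 995 genes lower and 497 higher, and the step from 136h to 152h had more calls in both directions (1605 higher and 1176 lower).

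The step from 120h to 136h called 8.57% of genes. The 3 steps before it called 5.85% (88h against 72h), 2.89% (104h against 88h) and 3.99% (120h against 104h). The step from 136h to 152h called 16% (9.22% higher and 6.75% lower), and 168h against 152h called 3.06%. Of the 8 h steps within it, 128h against 120h called 3.44% of genes (0.953% higher and 2.49% lower), and 136h against 128h called 1.75% (0.815% higher and 0.936% lower). The count of 136h against 128h depended most on the processing, with 1 gene called when only the groups compared were fitted. With 112h as the start, 471 genes were higher (2.7%) and 1064 lower (6.11%) at 136h, or 8.81%. At 19.9% of all tested genes every 136h library lay above every 120h library, and at 20.9% every one lay below.

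Of the gene lists used, mitosis genes had the most members that fell. Promoters of 5 cell cycle genes from 3 lists are shown first, because short elements near the start are known for such genes. Only promoters that hold a match are shown, so they do not stand for their lists. The 200 bases before the start of each gene, from RefSeq on GRCm38.p6, are written 5′ to 3′ in the direction of the gene, with capitals for a match on either strand to the E2F letters TTTCCCGC, TTTGGCGC or TTTCGCGC in *E2f7* (chr10:110745239-110745438, plus strand) and *Mcm5* (chr8:75109309-75109508, plus strand), and to the cell cycle homology region (CHR) letters TTTGAA or TTTAAA in *Ccnb2* (chr9:70421555-70421754, minus strand), *Plk1* (chr7:122159235-122159434, plus strand) and *Aspm* (chr1:139454573-139454772, plus strand). In *Mcm5* 2 E2F matches overlap.
E2f7: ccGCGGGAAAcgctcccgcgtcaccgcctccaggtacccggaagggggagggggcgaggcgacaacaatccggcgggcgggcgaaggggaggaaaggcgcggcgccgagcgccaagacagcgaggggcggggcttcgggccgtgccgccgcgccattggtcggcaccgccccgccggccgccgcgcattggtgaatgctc
Mcm5: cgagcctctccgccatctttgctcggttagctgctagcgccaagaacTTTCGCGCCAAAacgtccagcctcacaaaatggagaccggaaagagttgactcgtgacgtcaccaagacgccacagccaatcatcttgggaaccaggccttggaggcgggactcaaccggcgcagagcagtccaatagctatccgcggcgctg
Ccnb2: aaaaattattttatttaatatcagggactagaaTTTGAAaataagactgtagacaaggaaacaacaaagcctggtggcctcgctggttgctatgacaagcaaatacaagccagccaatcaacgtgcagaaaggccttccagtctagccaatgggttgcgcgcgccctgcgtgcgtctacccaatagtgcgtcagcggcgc
Plk1: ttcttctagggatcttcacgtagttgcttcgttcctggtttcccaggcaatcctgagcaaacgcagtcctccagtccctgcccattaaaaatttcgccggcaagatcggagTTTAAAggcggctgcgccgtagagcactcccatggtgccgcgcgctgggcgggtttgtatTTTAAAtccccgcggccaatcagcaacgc
Aspm: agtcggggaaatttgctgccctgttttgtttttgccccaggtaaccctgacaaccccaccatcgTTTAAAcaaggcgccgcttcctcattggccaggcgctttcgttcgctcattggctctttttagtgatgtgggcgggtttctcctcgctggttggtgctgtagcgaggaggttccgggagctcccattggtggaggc
E2F proteins switch on genes for S phase, and the CHR is bound by the complex that times genes of mitosis. The E2F letters were found before 8 of 29 DNA replication genes with a RefSeq promoter and 1 of 33 mitosis genes, against 1.52% of all 27025 genes with a promoter. The CHR letters were found for 15 of 33 mitosis genes and 3 of 29 DNA replication genes, against 22.5% of all genes. Of 18 G1 cyclins, E2F family members and CDK inhibitors with a promoter, 5 held the E2F letters and 7 the CHR letters. These are matches of letters, not sites shown to be bound.

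Of 39 mitosis genes tested, 30 fell and none rose, with a median log2 fold change of −0.75 over the 39, beside a median of 0 over all genes. *Ccnb2*, which encodes cyclin B2 and drives entry into mitosis, had 493, 502 and 508 normalized counts at 120h and 240, 247 and 260 at 136h. Every 136h library was below every 120h library, with little spread within either time. *Ccnb2* fell by 1.01 ± 0.07 (SE, n = 3 a group; adjusted p = 6.67e-24). *Plk1*, a kinase of the mitotic spindle and of cytokinesis, had 612, 586 and 593 at 120h and 341, 264 and 290 at 136h, a log2 fold change of −1.01 ± 0.08 (adjusted p = 4.56e-22). *Aspm*, which organizes spindle poles, and *Ccnb1* changed by −1.05 and −1.002. The 9 mitosis genes that did not pass, among them *Aurka* (−0.45), *Mad2l1* (−0.11) and *Cenpa* (−0.27), also had values below 0. From the 112h start 35 of the 39 were lower, with a median of −0.86.

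Of 37 DNA replication genes, 18 fell and none rose (median −0.56). *Tyms*, thymidylate synthase, which makes dTMP, had 102.5, 134 and 104 normalized counts at 120h and 39.6, 39.9 and 44.5 at 136h. The 3 libraries of 136h were tight and all lay under every 120h library, a log2 fold change of −1.43 ± 0.10 (adjusted p = 6.60e-24). *Rrm2*, the regulated subunit of ribonucleotide reductase, went from 819, 870 and 888 to 357, 404 and 360, a log2 fold change of −1.20 ± 0.06. *Mcm5*, a subunit of the replicative helicase whose promoter is printed above, had 1132, 1215 and 1200 at 120h and 577, 583 and 501 at 136h, a change of −1.10 ± 0.07 (adjusted p = 2.13e-25). *Pole*, the catalytic subunit of DNA polymerase epsilon, changed by −1.27 ± 0.08, and by −0.89 from the 112h start. Of the rest, *Pcna* (−0.42) and *Cdt1* (−0.07) did not pass the thresholds. From 112h, 17 of the 37 were lower. Replication-dependent histone genes, whose mRNAs mostly lack a poly(A) tail, had 7 of 32 higher and 2 lower (median 0.28), with *H1f2* at 0.81 ± 0.09, and from 112h 4 were higher and 3 lower (median −0.30).

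Upstream regulators of the cycle moved less as a group. Of 23 G1 cyclins, E2F family members and CDK inhibitors, 5 fell and none rose, and all 5 were of the E2F and pocket protein families (*E2f7*, *E2f8*, *Rbl1*, *E2f2* and *E2f1*, the last not without the second 136h library, at −0.54). *E2f7* and *E2f8* encode E2F repressors of late S phase, and changed by −1.09 ± 0.08 and −0.96 ± 0.08. *Myc*, a driver of growth and division, had 2778, 3274 and 3139 normalized counts at 120h and 1691, 1354 and 1550 at 136h. The groups did not overlap, and *Myc* fell by 1.00 ± 0.07 (adjusted p = 2.99e-25). *Gen1*, a resolvase of DNA junctions, was among the 12 largest falls of protein-coding genes with a mean of at least 50 and no overlap (−1.40 ± 0.12). In bulk RNA such as this, fewer cycling cells and less RNA of these genes per cell cannot be told apart.

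**Figure D2:**
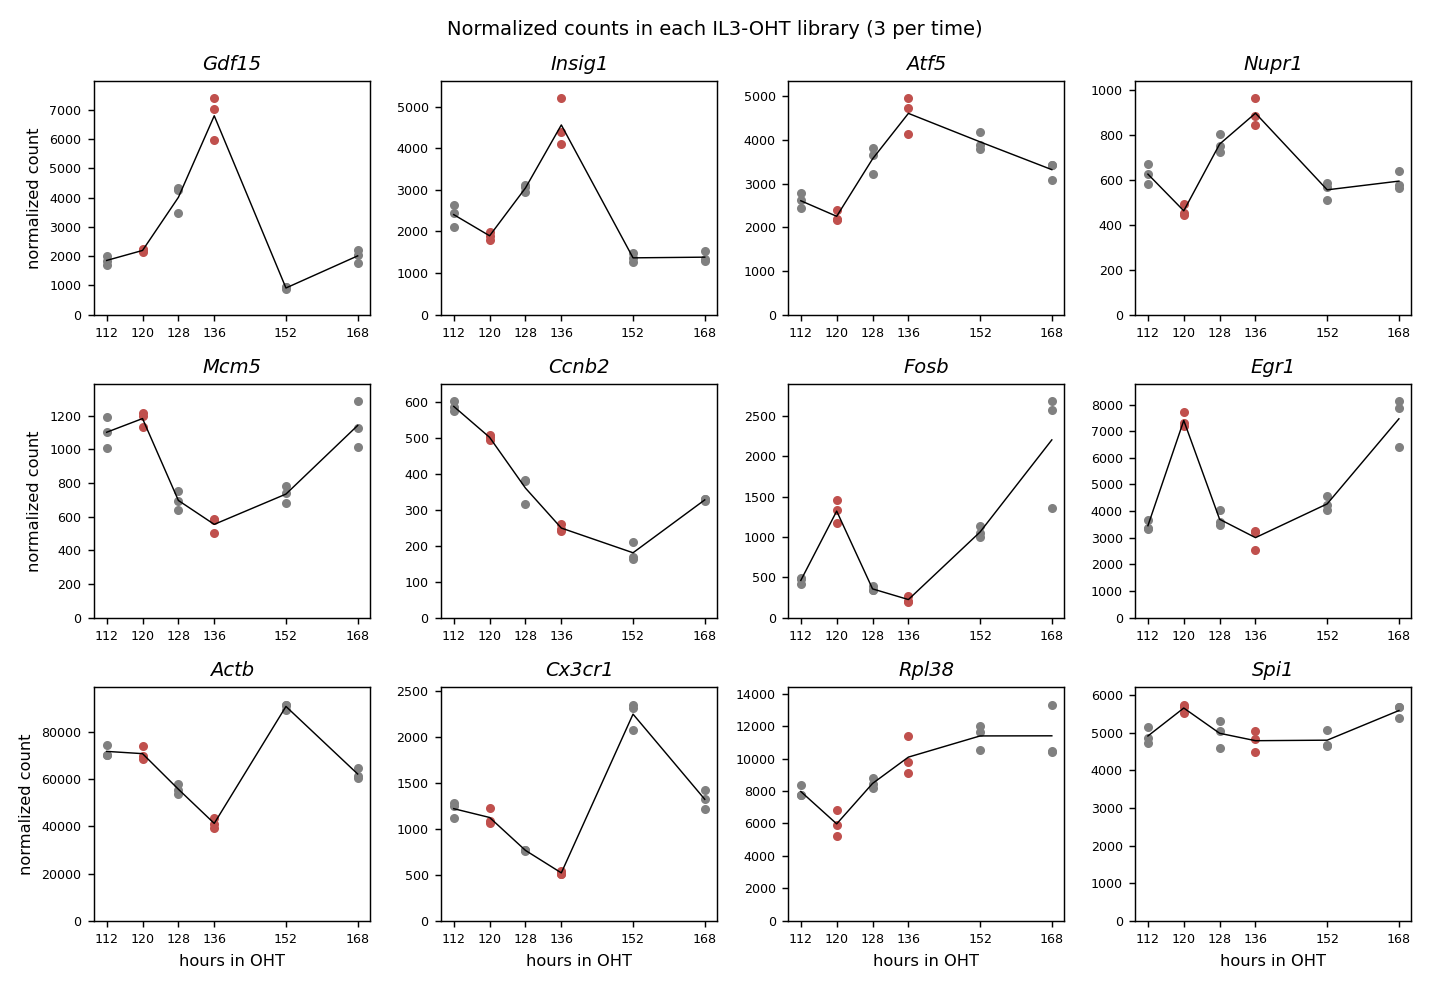
Normalized counts of 12 genes in each IL3-OHT library at 112h, 120h, 128h, 136h, 152h and 168h (3 points a time, with the compared times in red and the line through the means; axes start at 0). *Gdf15*, *Insig1*, *Atf5* and *Nupr1* reach their highest mean at 136h, *Mcm5* and *Ccnb2* decline from 120h to 136h, and *Fosb* and *Egr1* stand higher at 120h than at 112h and 128h.

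Among protein-coding genes with a mean of at least 50 normalized counts and no overlap between the groups, the rise was largest for *Gdf15* (chromosome 8, 70629393 to 70632470 of GRCm38), a secreted cytokine of the TGF-beta family that cells release under stress. It had 2229, 2155 and 2193 normalized counts at 120h and 7400, 5988 and 7020 at 136h. All 136h libraries lay above all 120h libraries, with the second replicate the lowest of them, and the log2 fold change was 1.63 ± 0.14 (adjusted p = 3.34e-19), or 3.09-fold. The mean was 1851 at 112h, 4010 at 128h and 908 at 152h, so that the level at 136h was the highest of these times. Genes with a like size of rise were *Ifrd1*, an immediate early transcriptional coregulator (1.28 ± 0.09), *Clk1*, a splicing kinase (1.20 ± 0.08), *Bcl6*, a transcriptional repressor of inflammatory genes (1.22 ± 0.09), and *Slc5a3*, the inositol transporter induced by high osmolarity (1.15 ± 0.11). *Gadd45a*, a growth arrest gene singled out after its values were seen, had 2633, 2396 and 2572 at 120h and 5356, 5090 and 5124 at 136h, a change of 1.03 ± 0.07. *Eid3* (1.37 ± 0.30) and the histone gene *H2ac6* (1.35 ± 0.24) rose from means of 29.7 and 68.5 normalized counts.

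ATF4 targets were represented by 25 tested genes, of which 6 rose and none fell (median 0.18). *Atf5*, a transcription factor of the integrated stress response, had 2157, 2193 and 2404 normalized counts at 120h and 4727, 4149 and 4955 at 136h, a change of 1.03 ± 0.07 (adjusted p = 5.02e-25). *Nupr1*, a small chromatin-associated stress protein, had 445, 492 and 451 at 120h and 844, 964 and 886 at 136h, a change of 0.95 ± 0.10. Neither gene's groups overlapped. *Ddit3*, the proapoptotic factor CHOP, and *Atf4* itself changed by 0.92 ± 0.06 and 0.76 ± 0.05, and *Trib3* and *Cars* were the other 2 that rose, *Cars* not without the first 136h library (0.57). The ATF4 composite element is read here by the letters TGATGCAA on either strand, present for 5 of 22 list members with a RefSeq promoter and 0.751% of all genes with one. It stands in the 200 bases before *Nupr1* (chr7:126625471-126625670, minus strand), shown with the match in capitals.
Nupr1: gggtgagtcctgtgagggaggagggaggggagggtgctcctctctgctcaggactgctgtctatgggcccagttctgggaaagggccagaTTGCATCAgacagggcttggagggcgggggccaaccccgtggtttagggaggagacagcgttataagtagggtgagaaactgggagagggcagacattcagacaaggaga
From the 112h start the ATF4 list had 2 genes higher and 5 lower, with a median of −0.01, and *Atf5* (0.82) and *Atf4* (0.59) were the 2 that were higher. The 5 lower were enzymes of serine and one-carbon metabolism, *Psat1*, *Phgdh*, *Psph*, *Shmt2* and *Aldh1l2*. The 120h means of *Nupr1* (463) and *Ddit3* (2331) were below those of 112h (626 and 2958), and from the 112h start neither passed. Of 18 endoplasmic reticulum chaperones, which mark the other arms of the unfolded protein response, limma called 0 at 136h against 120h. There 13 were at an unadjusted p under 0.05, edgeR called 0 and DESeq2 0 (median 0.18). From the 112h start 4 of the 18 were higher and 0 lower, with a median of 0.29.

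Cholesterol genes rose in part. Of 25 genes of cholesterol synthesis and uptake, 7 rose and none fell, with a median of 0.39. *Insig1*, which holds SREBP in the endoplasmic reticulum and is itself an SREBP target, had 1802, 1888 and 1987 normalized counts at 120h and 5198, 4384 and 4092 at 136h. The 136h libraries all lay above the 120h libraries, and the change was 1.26 ± 0.07 (adjusted p = 1.07e-30). *Msmo1* and *Fdft1*, enzymes of the late and the first committed step of sterol synthesis, changed by 1.19 ± 0.09 and 1.03 ± 0.11. *Cyp51* (0.79), *Hmgcs1* (0.77) and *Sqle* (0.77), enzymes of sterol synthesis, also rose. With 112h as the start, 2 of the 25 were higher and 2 lower (median −0.12). *Insig1* (0.92) and *Msmo1* (0.80) were the 2 higher.

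Iron and redox genes moved in both directions. Of 14 iron handling genes 2 rose and 2 fell (median 0.05), and those that rose were *Hmox1* and *Ftl1*. *Hmox1*, heme oxygenase 1, had 9648, 9644 and 10380 normalized counts at 120h and 18630, 16711 and 16552 at 136h, with no overlap, and a change of 0.81 ± 0.10 (adjusted p = 1.46e-10). *Ftl1*, the ferritin light chain that stores iron, was among the most abundant transcripts, at 313200, 309679 and 324246 and then 545666, 494404 and 534622, a change of 0.73 ± 0.07. *Ftl1* and *Fth1* together took 2.15% of reads at 120h and 3.12% at 136h. *Tfrc*, the transferrin receptor that imports iron, moved the other way, with 3936, 4031 and 3598 at 120h, 2239, 2411 and 2087 at 136h and a change of −0.78 ± 0.09. Of the wider NRF2 and glutathione list, 2 of 23 genes rose, *Hmox1* and *Txnrd1* (0.61 ± 0.05), and none fell (median −0.05). The *Txnrd1* call was lost without the first 120h library (0.57) or the first 136h library (0.56). *Sqstm1*, the autophagy receptor p62, was the only one of 14 autophagy genes called (0.74 ± 0.05). From 112h *Hmox1* (0.86), *Ftl1* (0.81), *Txnrd1* (0.71) and *Sqstm1* (0.69) were again higher.

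Some genes of cell death and low oxygen rose, with 17.6% of p53 targets, 13.3% of BCL2 family genes and 15.8% of hypoxia genes. The share over all tested genes was 2.85%. Of 17 p53 targets, 3 rose and none fell: *Eda2r* (0.88 ± 0.25), *Trp53inp1* (0.75 ± 0.10) and *Bbc3*, which encodes PUMA (0.68 ± 0.15). *Bbc3* had 4070, 3060 and 4443 normalized counts at 136h against 2495, 2350 and 2299 at 120h, so its second 136h library stood well under the other 2 though above the 120h group. Without the third 136h library the *Bbc3* value was 0.57 and did not pass. *Bcl2l11*, the BH3-only gene Bim, changed by 0.68 ± 0.05. Of 19 hypoxia genes, *P4ha1* (0.91 ± 0.11), *Hilpda* (0.72 ± 0.17) and *P4ha2* (0.61 ± 0.17) rose. Of 19 glycolysis enzymes limma called 0, with 8 at an unadjusted p under 0.05, and edgeR and DESeq2 called 0 and 0. From the 112h start 4 p53 targets and 2 hypoxia genes were higher.

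**Figure D3:**
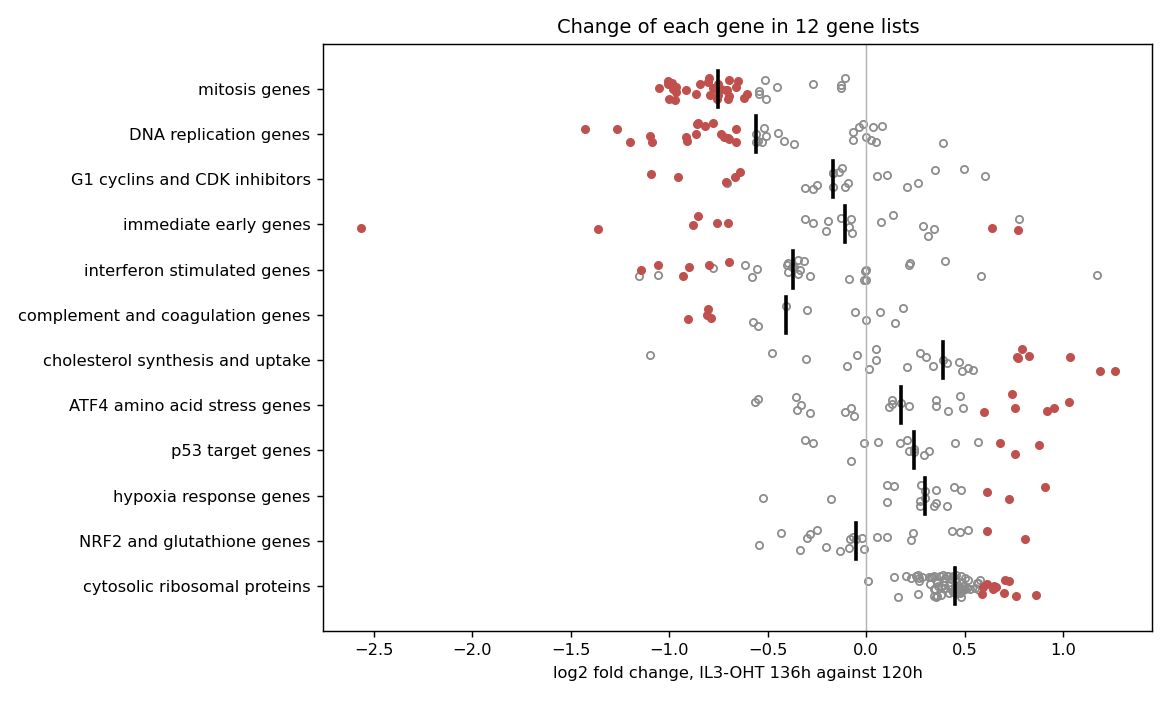
Log2 fold change between 136h and 120h of each tested gene (point) in 12 gene lists, with called genes filled in red, other genes open, and the median of each list as a black bar; points are spread vertically for sight only. All 39 mitosis genes lie below 0 and all 79 cytosolic ribosomal protein genes lie above 0, with 30 and 11 called.

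Of 22 immediate early genes 6 fell and 2 rose (median −0.11), and from the 112h start 2 were lower and 2 higher (median 0.03). These genes answer growth factor signalling through ERK within minutes. *Fosb* had 1169, 1452 and 1340 normalized counts at 120h and 271, 202 and 199 at 136h, a change of −2.56 ± 0.18 (adjusted p = 5.17e-24). *Fos* went from 3087, 3568 and 3161 to 1430, 1199 and 1194, a change of −1.36 ± 0.12. The others that fell included *Ier2* (−0.88) and *Klf2* (−0.85). *Atf3*, an early gene that ATF4 also induces, rose (0.77 ± 0.15). At 112h the *Fosb* mean was 461 and the *Fos* mean 1791, under the 120h level, and from that start *Fosb* was lower by 1.05 ± 0.18 on the log2 scale and *Fos* had a value of −0.49 that did not pass.

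*Egr1* and *Egr2*, zinc finger factors that PU.1 engages on the macrophage path, followed the early genes. *Egr1* had 7189, 7706 and 7310 normalized counts at 120h and 3224, 2539 and 3243 at 136h, a change of −1.31 ± 0.18 (adjusted p = 6.20e-10), with every 136h library below every 120h library. *Egr2* went from 262, 300 and 236 to 116.2, 97.2 and 113.5 (−1.28 ± 0.22). Against the mean of 112h and 128h, *Egr1* at 120h was higher by 1.05 ± 0.15 on the log2 scale, and *Fosb* by 1.70 ± 0.16. In that comparison 0.913% of genes were higher at 120h and 0.815% lower, or 1.73% in all. From 112h to 136h the *Egr1* value was −0.21 ± 0.18 and did not pass. Of 13 genes in a list of ERK feedback and related genes, the phosphatase genes *Dusp4* (0.78) and *Dusp10* (0.90) rose. *Dusp6* fell at the threshold (−0.58 ± 0.07), a call lost without the second 120h (−0.55) or second 136h library (−0.54).

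None of the other lineage regulators followed passed both thresholds. *Spi1*, read from the PU.1 fusion and from any transcript of the disrupted locus, which cannot be told apart, had 5532, 5753 and 5693 normalized counts at 120h and 5042, 4482 and 4847 at 136h. Its log2 fold change of −0.24 ± 0.05 had an adjusted p of 1.38e-05 and was under the fold threshold. Also under that threshold were *Nab2* (0.31), *Zeb2* (0.37), *Gfi1* (−0.35), *Cebpa* (−0.38) and *Cebpe* (−0.47). *Irf8* had 27.3, 34.5 and 33.7 normalized counts at 120h and 14.04, 18.7 and 16.4 at 136h, a value of −0.92 ± 0.42 with an adjusted p of 0.08. Both edgeR and DESeq2 called it lower (−0.96 by each). Of 8 neutrophil transcription factors limma called 0, with 5 at an unadjusted p under 0.05, and edgeR and DESeq2 called 0 and 0.

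Some surface and secreted proteins of myeloid cells fell, with shares to be read beside the 5.71% of all tested genes that fell. The shares were 11.1% of monocyte and macrophage markers, 30.8% of complement and coagulation genes and 8.33% of cytokine receptors. Chemokines and cytokines had 11.5%, and Fc and paired receptors 20%. Of 27 monocyte and macrophage markers, 3 fell (*Cx3cr1*, *F13a1* and *Clec7a*) and 1 rose (median −0.17). The gene that rose was *Mertk*, a receptor for apoptotic cells, at 0, 2.55 and 0 normalized counts at 120h and 11.5, 4.98 and 8.19 at 136h, levels of few reads. *Clec7a* did not pass without the first 136h library (−0.55). *Cx3cr1*, the fractalkine receptor of patrolling monocytes, had 1082, 1229 and 1064 normalized counts at 120h and 539, 512 and 513 at 136h. Every 136h value was under every 120h value by a wide margin (−1.11 ± 0.07; adjusted p = 1.30e-26). Of 13 complement and coagulation genes, 4 fell: *Fn1*, fibronectin (−0.91), *Vcan*, versican (−0.81), *F13a1*, coagulation factor XIII (−0.80), and *Thbs1*, thrombospondin 1 (−0.79). *Vcan* was even among replicates, at 5537, 5565 and 5512 and then 3082, 3211 and 3195. Of 24 cytokine receptors 2 fell. *Il17ra*, the IL17 receptor chain, fell by 0.98 ± 0.06, and *Ifngr1*, the interferon gamma receptor, by 0.66 ± 0.05. Of 16 cytokine STAT targets 2 fell and 1 rose. *Socs1*, which dampens cytokine signals, was among those that fell (−0.81 ± 0.18). Of 26 chemokines and cytokines *Il12a* (−0.69), *Il1rn* (−0.65) and *Il23a* fell while *Il10* was called higher. *Il10* had 0, 0 and 0 normalized counts at 120h and 7.66, 0 and 1.17 at 136h, so that its call rested on the first 136h library (value without it 0.56), and neither edgeR nor DESeq2 called it. Of 25 Fc and paired receptors 5 fell, among them *Pira2* (−0.95 ± 0.36) and *Clec4a2* (−0.76 ± 0.27), with adjusted p of 0.0278 and 0.0201. Each of these calls was lost without any of 3 libraries (adjusted p up to 0.17 for *Pira2* and 0.063 for *Clec4a2*).

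Interferon stimulated genes, which sense and restrict viruses, had 6 of 32 members lower and none higher (median −0.37). *Ifit2* had 248, 277 and 359 normalized counts at 120h and 164.7, 158.2 and 144.0 at 136h, a change of −0.90 ± 0.10. *Gbp3*, a guanylate binding protein, changed by −1.06 ± 0.12. *Ifih1*, the RNA sensor MDA5, and *Zbp1*, a nucleic acid sensor, were lower still in level, with 136h means of 29.7 and 25.4 normalized counts, and changed by −1.14 ± 0.20 and −0.93 ± 0.21. *Slfn9*, which is not in the list, changed by −1.43 ± 0.16. From the 112h start 9 of the 32 were lower.

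Neutrophil granule genes had 3 of 26 lower and none higher (median 0.06), and these 3 were *Mmp9* (−0.65 ± 0.20), *Mmp8* (−0.62 ± 0.24) and *Ms4a3* (−0.59 ± 0.10), each close to a threshold. *Mmp8* did not pass without any 1 of 5 of the 6 libraries, *Ms4a3* without any 1 of 3, and *Mmp9* not without the second 136h library (−0.45). *Mgam*, a brush border maltase that these cells express, had 1154, 1236 and 1143 normalized counts at 120h and 401, 389 and 408 at 136h, a change of −1.56 ± 0.08 (adjusted p = 7.62e-34). *Lipn*, a lipase, changed by −1.42 ± 0.19. *Mcpt8*, a basophil protease, went from a mean of 53.6 to 30.98 (−0.82 ± 0.15), the only called gene of 6 tested mast cell and basophil markers, and did not pass without the third 136h library (−0.54).

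No list of cytoskeletal genes was used, and 3 genes are given singly. *Actb*, cytoplasmic beta actin, had 69872, 74092 and 68778 normalized counts at 120h and 40976, 39310 and 43627 at 136h. With no overlap between the groups, the change was −0.78 ± 0.05 (adjusted p = 7.29e-25). *Actg1* (−0.77 ± 0.05) and *Flna*, filamin A (−0.92 ± 0.06), both singled out after their values were seen, fell by a like amount. The *Actb* mean was 90956 at 152h, above that of 120h. Of 19 integrin and adhesion genes limma called 0, with 9 at an unadjusted p under 0.05, and edgeR and DESeq2 called 0 and 0.

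Clock genes moved in both directions, with 5 of 19 higher and 2 lower (median 0.11). From the 112h start 2 were higher and 1 lower (median 0.13). The part of the time of day of harvest in these changes was not tested. *Nr1d2*, which encodes REV-ERB beta, a repressor, had 66.2, 63.9 and 68.5 normalized counts at 120h and 144.2, 158.2 and 119 at 136h (1.07 ± 0.19). *Arntl*, which encodes the activator BMAL1 and which REV-ERB represses, went from 32.4, 30.7 and 42.1 to 12.8, 23.7 and 12.9 (−1.09 ± 0.19). The largest fall of the list was that of *Npas2* (−3.13), a gene too low for the alternative filter on a mean of at least 10. *Nr1d2* had the largest rise, and the other clock genes that rose are not given here. Whether these changes are linked was not tested.

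Ribosomal protein genes all had positive values. Of 79 cytosolic ribosomal protein genes, 11 rose and none fell, and the median was 0.45. *Rpl38* had 5915, 5196 and 6803 normalized counts at 120h and 9799, 11387 and 9077 at 136h, a change of 0.76 ± 0.11 (adjusted p = 4.76e-09). *Rps29* (0.86), *Rps28* (0.73) and *Rps21* (0.70) also rose. The class took 6.94% of reads at 112h, 6.46% at 120h, 7.66% at 128h and 7.83% at 136h, and from the 112h start 1 of the 79 genes was higher, with a median of 0.31. Of 35 ribosome biogenesis genes none rose and 2 fell (median −0.32), or 5.71%, the share over all tested genes.

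Pseudogene annotations were frequent among entries that rose, with 7.1% of 2000 tested pseudogenes called higher. Of processed copies of ribosomal protein genes, named with -ps, 32 were higher, or 20.9% of those tested, and none lower (median 0.57). *Rps19-ps6* had 120.7, 132 and 105.3 normalized counts at 120h and 315, 520 and 455 at 136h (1.82 ± 0.41), *Rpl14-ps1* changed by 1.92 ± 0.54, and *Morf4l1-ps1*, a copy of a chromatin gene, by 1.78 ± 0.68. Such entries are near-identical to their parent genes, and how reads were divided between parent and copy is uncertain. The *Morf4l1-ps1* call was lost without any of 3 libraries. From the 112h start 1 of these copies was higher, and 20 of them were lower at 120h than the mean of 112h and 128h. Mitochondrially encoded genes had 1 of 13 lower, *mt-Nd4* (−0.59 ± 0.11), a call lost without the third 120h (−0.57) or the third 136h library (−0.50). Of the 13, 3 were higher at 120h than the mean of its neighbours.

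GCSF-OHT cells over the same 16 h serve as the background, with another cytokine and another OHT dose. There 237 genes were higher and 217 lower at 136h than at 120h, or 1.36% and 1.25% of all tested, and 2.61% in all. The difference between the changes was called for 1241 genes, or 7.13%, with 828 (4.75%) where the GCSF-OHT change was the more positive and 413 (2.37%) where the IL3-OHT change was. In GCSF-OHT limma called 0 of the 39 mitosis genes (median −0.36), with 35 at an unadjusted p under 0.05, edgeR called 0 and DESeq2 0. For 9 of the 39 the difference between the changes in the cytokines passed. *Plk1* had a mean of 1309 and then 1091 normalized counts there. DNA replication had 8 of 37 lower in GCSF-OHT (median −0.43), and the difference passed for *Tyms*, *Pole*, *Mcm3* and *Orc6*, the last with the more negative change in GCSF-OHT.

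**Figure D4:**
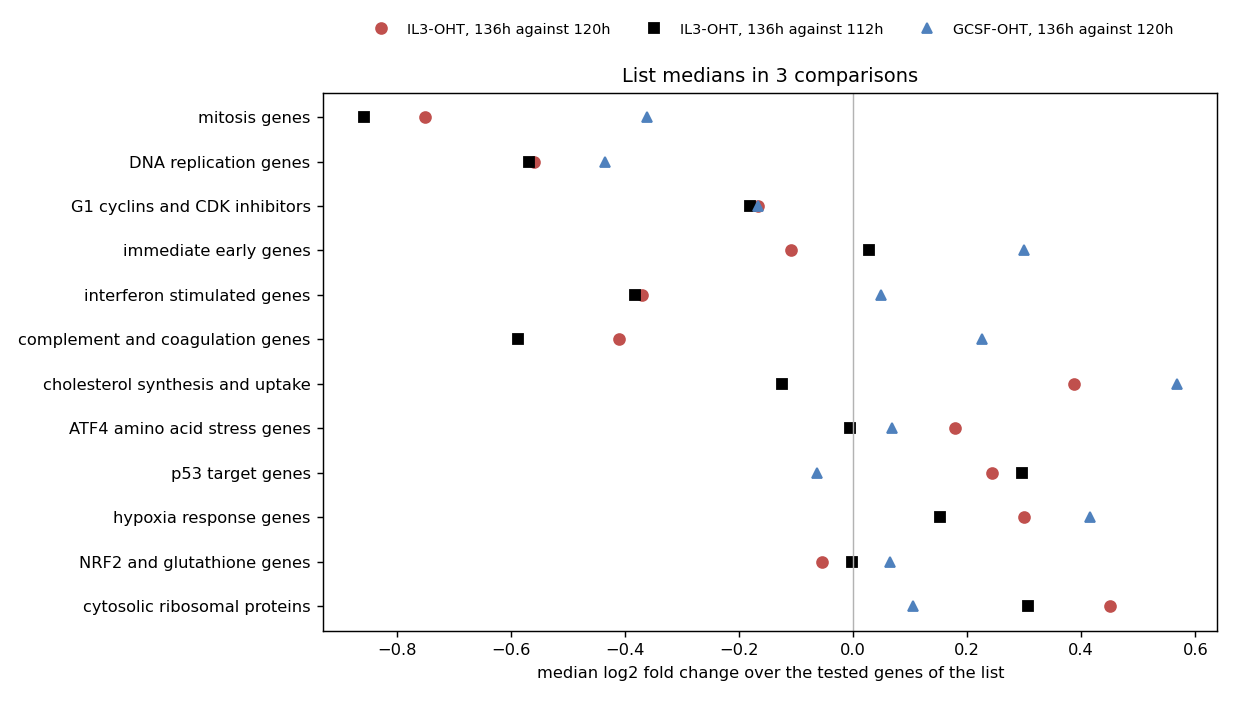
Median log2 fold change over the tested genes of 12 lists in 3 comparisons, with IL3-OHT 136h against 120h as circles, IL3-OHT 136h against 112h as squares and GCSF-OHT 136h against 120h as triangles. The mitosis median is −0.75, −0.86 and −0.36 in this order, and the cholesterol median is 0.39, −0.12 and 0.57; the 3 comparisons share libraries or the 120h library prefix.

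Cholesterol genes in GCSF-OHT cells had 11 of 25 higher and none lower (median 0.57). The difference between the cytokines passed for 3 of the 25 with the more positive change in GCSF-OHT. For 2 it passed with the more positive change in IL3-OHT, among them *Insig1* (−0.61 ± 0.10; adjusted p = 9.68e-07). The median difference over the 25 was 0.15, GCSF-OHT minus IL3-OHT. The ATF4 list had 1 gene higher in GCSF-OHT, and the difference between the cytokines passed for 4 genes, *Atf5*, *Nupr1*, *Ddit3* and *Atf4*. *Actb* had means of 87668 and 88486 in GCSF-OHT, and the difference in its change was 0.79 ± 0.08 (adjusted p = 2.00e-15). *Egr1* was at 749 and 764 in GCSF-OHT, with a difference of 1.38 ± 0.25. Of the 32 interferon stimulated genes 1 was lower there. In GCSF-OHT, with 2 libraries at 112h, 0.902% of genes were higher and 1.14% lower at 120h than the mean of 112h and 128h, or 2.04%, and 5 of the 13 mitochondrially encoded genes were lower at 136h than at 120h.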

How the data were processed

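Polyadenylated RNA of PUER cells was sequenced. The deposited values are normalized counts, here treated as a signal: per the labels and the methods of the study, the authors quantified reads with Salmon on GRCm38 and divided counts by DESeq2 size factors. Each library's values were 100% whole multiples of 1 step (relative tolerance 1e-06), so reads were recovered and gave 14600246 to 33147945 reads a library. The main test was limma 3.58.1 on log2(normalized count + 1), with 1 mean for each of 54 groups (IL3-OHT 96h and 144h left out as in the study), over the 17414 genes that reached a value of 5 in any library. Groups had 3 replicates, except 3 GCSF-OHT groups with 2, among them 112h. Called genes passed 0.05 on the adjusted p and 0.58 on the size of the log2 fold change. edgeR 4.0.16 and DESeq2 1.42.0 on the reads, other pseudocounts, filters and scalings, and fits without each library were alternatives. Tested on simulated counts of 11454 genes for 136h against 120h, limma called 98% of genes changed by 1 on the log2 scale. The simulation held only genes of higher mean and gave every gene the same spread. It does not give the share for real genes of few reads or uneven spread. Named genes were the 12 largest called changes in each direction without overlap and with a mean of at least 50, up to 4 called members of each list by size of change, and 9 lineage regulators. Because pseudogenes led the first set, the 12 largest protein-coding changes in each direction were added after their values were seen, as were single genes said to be so. Members and gene lists were chosen with earlier results of these data known. Replicate numbers do not pair the libraries. Gene positions and promoters are RefSeq's on GRCm38.p6. Some members of the lists are not reported here.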

Additional observations from a re-analysis of the deposited data

Results flagged for a closer look

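The change from 120h to 136h differed between GCSF-OHT and IL3-OHT cells, by limma's interaction term at the same thresholds, for 69 of the genes named. Most of the named genes were chosen because they were called in IL3-OHT, and the term uses the same IL3-OHT libraries again. That choice favours a pass, so the 69 are not independent evidence of a difference between the cytokines. Over all tested genes the term called 7.13%. Values are the GCSF-OHT change minus the IL3-OHT change on the log2 scale, so a positive value goes with the more negative change in IL3-OHT. The cytokine, the OHT dose and the time in GCSF differ together between the groups and cannot be told apart.

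Among genes of the cell cycle and growth, the difference passed for *Tyms* (0.68), *Pole* (0.72), *Aspm* (0.82), *Ccnb2* (0.64), *Plk1* (0.74), *Ccnb1* (0.61), *E2f7* (0.70), *E2f2* (0.93), *Gen1* (0.80) and *Myc* (1.14). Immediate early genes and their relatives that passed were *Fosb* (2.14), *Fos* (1.22), *Ier2* (1.05), *Klf2* (1.34), *Egr1* (1.38), *Egr2* (1.12), *Fosl1* (0.94), *Zfp36* (1.21) and *Dusp6* (0.86). For receptors, matrix and immune genes the values were *Cx3cr1* (0.91), *F13a1* (0.84), *Fn1* (0.65), *Vcan* (0.94), *Thbs1* (1.16), *Il17ra* (1.10), *Socs1* (0.85), *Il1rn* (0.82), *Il23a* (2.02), *Mmp9* (0.72), *Tlr2* (0.69), *Tlr6* (1.59) and *Mertk* (−3.99). Interferon stimulated genes gave *Ifih1* (1.22), *Gbp3* (0.63) and *Zbp1* (1.10). Single genes outside that list gave *Slfn9* (0.99), *Actb* (0.79), *Actg1* (0.74) and *Flna* (0.83).

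Of the genes that rose most in IL3-OHT, the difference was *Gdf15* (−0.72), *Ifrd1* (−1.38), *Clk1* (−1.11), *Bcl6* (−0.75), *Slc5a3* (−0.99), *Eid3* (−1.25) and *Gadd45a* (−0.71). Named cholesterol genes that passed were *Insig1* (−0.61) and *Msmo1* (−0.62), the 2 of the 25 in that list with a passing negative value. Another 3 of the 25, not among the named genes, passed with a positive value. ATF4 targets that passed were *Atf5* (−0.86), *Nupr1* (−0.61), *Ddit3* (−0.63) and *Atf4* (−0.67). p53 and redox genes gave *Eda2r* (−1.64), *Trp53inp1* (−0.71) and *Txnrd1* (−0.76). *Eda2r* was called higher in IL3-OHT (0.88) and lower in GCSF-OHT (−0.76), where its mean was 22.1 and 13.0 normalized counts. Ribosomal protein genes and copies gave *Rps29* (−0.77), *Rpl38* (−0.87), *Rps28* (−0.70), *Rpl14-ps1* (−2.25) and *Rps19-ps6* (−1.81). The clock genes *Nr1d2* (−1.68), *Arntl* (0.88) and *Npas2* (2.61) passed as well. The rest were *Mgam* (1.54), *Lipn* (0.95), *Greb1* (0.79), *Angptl4* (1.13), *Slc30a1* (−0.79) and *Cebpa* (0.63).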

How the results depend on the processing

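Direction and call of the named genes held in most settings: 93 called genes stayed called in every alternative, 21 lost the call in at least 1, and 1 value changed sign, that of *Cdt1*, which was not called (−0.14 to 0.042 when a library was left out, above 0 without the second 136h library). Of the calls lost, *P4ha2* (0.56) and *Irak2* (0.55) were lost under upper-quartile scaling alone. *Zfp36l1* was lost without the third 136h library (0.58) and *Tlr6* without the same library (−0.99). Other calls lost without a library are given beside the genes. Upper-quartile scaling also took the calls of *Txnrd1* and *Cars*. A pseudocount of 0.5 took those of *Pira2* and *Clec4a2*, and a pseudocount of 5 those of *Tlr2* and *Il10*. With no filter on low values *Mmp8* and *Morf4l1-ps1* were not called. *Il10* was also not called when only the groups compared were fitted. Leaving out 1 library gave 445 to 487 genes higher and 911 to 1034 lower at 136h than at 120h, 1018 to 1427 for the difference between GCSF-OHT and IL3-OHT, 1388 to 1630 for 136h against 112h, 483 to 699 for 128h against 120h, 376 to 472 in GCSF-OHT, and 225 to 390 and 277 to 393 for 120h against its neighbours in IL3-OHT and GCSF-OHT. For 128h against 120h (599 genes), fitting only the groups compared gave 289 and DESeq2 gave 387. For 136h against 128h, no filter gave 229 higher and 254 lower, a mean of at least 10 gave 70 higher, edgeR gave 57 and 73, DESeq2 gave 36 and 79, and limma on only the groups compared gave 0 and 1, with 1079 and 1111 at an unadjusted p under 0.05. For 120h against its neighbours, IL3-OHT (301) fell to 194 with only the groups compared and 193 with DESeq2, and GCSF-OHT (356) to 224 with DESeq2. The cause of these shifts was not tested. Upper-quartile scaling moved the share of lower calls from 66.7% to 75.3%, cut called ribosomal protein genes from 11 to 8, and moved the median over genes with a mean of at least 10 from −0.02 to −0.07. With the replicate number as a block, 496 genes were higher and 993 lower. Same-numbered libraries deviated with correlations of −0.04, 0.04 and −0.05, so the numbers were not taken as pairs, and not every library correlated best with its own number. A lone library left in GCSF-OHT 112h was assumed to vary like the other groups. At 3 libraries a group, genes of few reads such as *Mertk* and *Il10* carry large errors.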

Other observations

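Other lists held changes not described above. Of 35 ribosome biogenesis genes, the 2 that fell were *Polr1b*, a subunit of RNA polymerase I, at 474, 460 and 478 normalized counts at 120h and 266, 263 and 246 at 136h, and *Rrp9*, which acts in pre-rRNA cleavage (−0.75 ± 0.10). *Greb1*, a target of estrogen receptor ligands in other cells, had 737, 724 and 718 at 120h and 383, 394 and 511 at 136h, with no overlap (−0.77 ± 0.07; adjusted p = 2.54e-16). Of 9 metal genes, the zinc exporter *Slc30a1* (0.72 ± 0.11) and the metallothionein *Mt2* (0.68 ± 0.13) rose, and the zinc importer *Slc39a10* fell (−0.68 ± 0.14), though not without the first (−0.55) or second 120h library (−0.55). *Irak2*, a kinase of Toll-like receptor signalling, rose from 5510, 5664 and 5563 to 8550, 8360 and 8448, while *Tlr2* (−0.60) fell, a call lost without the second 120h (−0.49) or second 136h library (−0.51). *Angptl4*, an inhibitor of lipoprotein lipase, fell by 0.94 ± 0.12, and *Ptgs1*, cyclooxygenase 1, by 0.63 ± 0.05.

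The 3 IL3-OHT libraries of 144h, which the study left out and no comparison here uses, had 1226, 1304 and 1580 normalized counts of *Gdf15*, 973, 938 and 1241 of *Insig1* and 105955, 106836 and 114731 of *Actb*. At 136h the *Gdf15* and *Insig1* levels were above, and the *Actb* levels below, all 3 of these.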
